A study of Mus musculus with 6 samples.

Results

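Mitochondrial ribosomal protein genes encode, in the nucleus, the protein components of the ribosome that works inside mitochondria. They were chosen by symbol alone, as the genes whose name is Mrpl or Mrps followed by a number and at most 1 letter, and 76 of the 21937 genes measured met this rule. By symbol, 47 belong to the large subunit (Mrpl) and 29 to the small subunit (Mrps). Chromatin immunoprecipitation followed by sequencing had been carried out in 2 immortalized mouse cell lines, mK4 and mK3, derived from the E11.5 metanephros (the embryonic kidney) and both labelled as strain CD1. For each line, 1 library came from an H3K4 antibody, 1 from an H3K27 antibody and 1 from input chromatin, that is, DNA taken without an antibody. No treatment or engineered allele is named in the labels, and each line stands for itself as a single immortalized line. The study addressed histone methylation in nephron progenitors.

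Mitochondrial ribosomes translate the few proteins encoded by mitochondrial DNA, all of which are core subunits of the respiratory chain and the ATP synthase. The large subunit forms peptide bonds and feeds the new chain into the inner membrane, and the small subunit binds the messenger RNA and checks the codon. The genes are expressed in nearly all cell types, and such genes commonly carry methylated H3K4 at their promoters and lack the trimethylated H3K27 laid down by Polycomb proteins.

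The names of the marks are those of the labels, which do not give the degree of methylation. The catalogue number given for the H3K4 antibody, ab8898, is known as that of an antibody against trimethylated lysine 9 of histone H3. Which modification the H3K4 libraries recovered was not tested. Reads were counted over exons, so signal upstream of the first exon is not in the counts. Summed counts ran between 311409 in mK3 input and 714011 in mK4 H3K4. Of 11 nephron progenitor markers, H3K4 lay at least 2-fold over input at 0 in mK4 and 0 in mK3, and H3K27 at 0 and 1. The H3K4 counts in mK4 and mK3 were 2 and 0 of 7 induced nephron markers, 0 and 0 of 6 ureteric bud markers, 1 and 0 of 5 stroma markers, 1 and 0 of 5 endothelial markers and 0 and 0 of 3 blood markers. For H3K27 they were 0 and 3, 2 and 1, 2 and 0, 1 and 1, and 0 and 0 in the same order of lists. Of all genes, H3K4 lay that far over input at 3.69% in mK4 and 4.94% in mK3, and H3K27 at 9.06% and 10.3%. With 1 library in each group, differences could not be set against replicate spread and were not tested. All ranges in parentheses after a share or a ratio are exact Clopper-Pearson intervals at the 95% level, which cover counting error alone.

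Some features of the gene start, which the symbol rule did not use, were more frequent among the members than among all genes. RefSeq promoter windows (assembly GRCm38.p6, 250 bases before to 50 after the start) were matched by symbol for 67 of the 76. Each window was searched on both strands for CCGGAAG, a core of the sites bound by ETS family factors such as GABP, for GCATGCG, a core of the NRF1 site, and for GATGGCG, a core of the YY1 site. These factors are known as regulators of nuclear genes for mitochondrial proteins. The ETS core was found at 24 of 67 members (35.8%), against 13.1% of the 14678 genes of the files with a window. For the NRF1 core the shares were 11.9% of members (8 of 67) and 5.17% of all genes, and for the YY1 core 11.9% (8 of 67) and 5.13%. Member windows also held more CpG dinucleotides, with a median of 21 against 15 over all genes. Among the 3559 genes whose CpG count lay in the middle range of the members (15.5 to 25.5), the shares were 22.0% for the ETS core, 8.51% for NRF1 and 7.73% for YY1. Head-to-head arrangement, with the start of a gene on the opposite strand lying upstream and close enough for the windows to overlap, was seen at 22 of 67 members (32.8%), at 12.2% of all genes and at 18.5% of genes of like CpG count. Mrpl46 and Mrps11 are such a pair with each other, their starts 42 bases apart. Others face Tcp1 (a chaperonin subunit, opposite Mrpl18), Sars2 (the mitochondrial seryl-tRNA synthetase, opposite Mrps12), Peo1 (the mitochondrial DNA helicase, opposite Mrpl43) and Ndufb5 (a complex I subunit, opposite Mrpl47). A match is a run of letters and not a shown binding site.

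**Figure D1:**
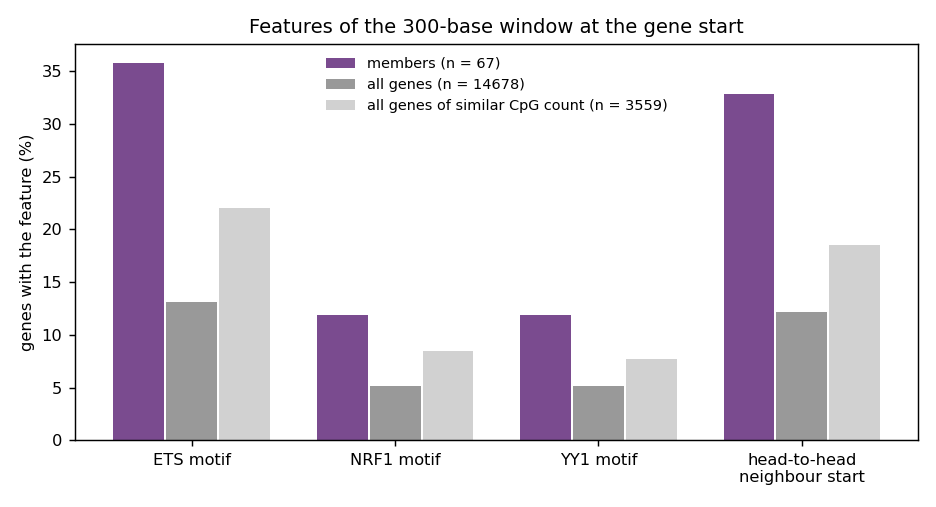
Share of genes (y axis, percent) whose RefSeq window at the start holds each motif core or overlaps that of a head-to-head neighbour, for the 67 members with a window, all 14678 genes with a window and the 3559 genes of similar CpG count. The member bars stand highest in each group, at 35.8% for the ETS core and 32.8% for head-to-head neighbours.

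The 250 bases before the start are printed for 5 members, 5′ to 3′ on the strand of the gene, with matches to the 3 cores in capitals. Mrps11 (chr7:78782881-78783130, + strand) is shown for the start it shares with Mrpl46. The others were chosen among the 67 members with a window, by the mean over both lines of the log2 ratio of H3K4 over input with a pseudocount of 5. Mrps10 (chr17:47368947-47369196, + strand) had the highest mean after Mrps11, and Mrps6 (chr16:92058086-92058335, + strand) the lowest. Mrpl53 (chr6:83108858-83109107, + strand) and Mrpl39 (chr16:84735245-84735494, - strand) had the highest among the remaining holders of the ETS and the NRF1 core.
Mrps11: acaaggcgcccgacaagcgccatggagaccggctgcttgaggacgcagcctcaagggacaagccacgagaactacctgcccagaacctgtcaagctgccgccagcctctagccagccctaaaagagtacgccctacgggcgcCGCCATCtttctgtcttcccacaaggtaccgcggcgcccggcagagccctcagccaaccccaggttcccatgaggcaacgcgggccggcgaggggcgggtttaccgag
Mrps10: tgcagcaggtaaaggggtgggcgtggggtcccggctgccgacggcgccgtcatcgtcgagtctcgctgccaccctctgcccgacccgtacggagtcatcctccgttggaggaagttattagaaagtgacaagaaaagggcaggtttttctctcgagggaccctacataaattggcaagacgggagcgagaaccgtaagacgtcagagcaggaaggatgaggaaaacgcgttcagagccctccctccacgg
Mrps6: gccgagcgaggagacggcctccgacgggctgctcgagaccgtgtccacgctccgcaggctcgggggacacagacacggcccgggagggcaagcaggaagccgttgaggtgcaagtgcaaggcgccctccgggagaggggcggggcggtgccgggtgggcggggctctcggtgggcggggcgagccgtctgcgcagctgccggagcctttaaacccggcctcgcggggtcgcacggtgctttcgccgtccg
Mrpl53: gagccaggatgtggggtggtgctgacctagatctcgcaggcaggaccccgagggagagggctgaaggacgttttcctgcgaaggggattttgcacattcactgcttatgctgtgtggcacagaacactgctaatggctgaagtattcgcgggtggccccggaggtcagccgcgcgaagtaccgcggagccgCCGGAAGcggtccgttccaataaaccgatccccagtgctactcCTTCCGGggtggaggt
Mrpl39: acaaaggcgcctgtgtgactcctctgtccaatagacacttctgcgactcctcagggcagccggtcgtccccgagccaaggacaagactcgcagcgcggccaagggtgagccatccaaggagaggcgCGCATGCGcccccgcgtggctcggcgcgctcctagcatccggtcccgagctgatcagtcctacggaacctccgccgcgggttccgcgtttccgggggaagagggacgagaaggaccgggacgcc
Mrps11 held the YY1 core, Mrpl53 the ETS core once on each strand and Mrpl39 the NRF1 core on both strands, overlapping itself, while none of the 3 cores was found upstream of Mrps10 or Mrps6. All coordinates are those of GRCm38.p6, whereas the reads were mapped to mm9, and no read was placed in these windows.

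H3K4 reads were denser over the members than input reads in both lines. Of all reads in exons, the members took 0.288% in mK4 H3K4 (0.276 to 0.301) and 0.20% in mK4 input (0.187 to 0.215), a ratio of 1.44 (1.32 to 1.56). In mK3 they took 0.290% of H3K4 reads (0.277 to 0.304) and 0.221% of input reads (0.204 to 0.238), a ratio of 1.32 (1.2 to 1.44). Their exons are 0.171% of all exon length measured, so input was itself above the average density. Summed over members, reads per exon kilobase, scaled to library size (RPKM), were 27.1 in mK4 H3K4 and 27.4 in mK3 H3K4, beside 18.9 and 20.8 in the inputs of mK4 and mK3, where all genes together come to 16.1 in each library. Per gene, log2 ratios were formed on counts scaled to equal library totals plus a pseudocount of 5, which draws genes with few reads towards 0. The median member lay at 0.39 over input in mK4 and 0.32 in mK3, against 0.00 for all genes in each line. Over all 4886 genes with exon lengths of 780 to 1523 bases, the quartiles of the members, the medians were 0.04 and 0.02. In mK4, 56 of 76 members lay above input (73.7%), against 47.1% of all genes, and in mK3 52 of 76 (68.4%), against 47.2%. H3K4 lay above input in both lines at 38 of 76 members, against 25.7% of all genes, and below it in both at 6 (7.89%), against 27.9%.

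**Figure D2:**
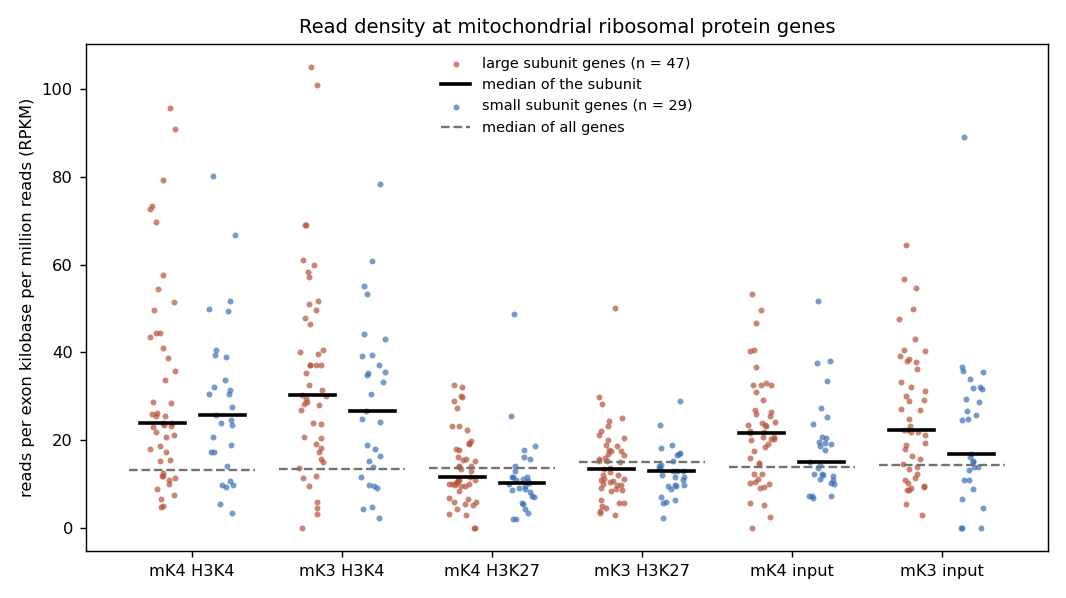
Read density in RPKM (y axis) of each member in the 6 libraries, with large subunit genes left of small subunit genes; black bars are subunit medians and dashed lines the median of all genes. The subunit medians in the H3K4 libraries, 24.0 and 25.7 in mK4 and 30.2 and 26.6 in mK3, lie above the all-gene medians of 13.1 and 13.5, while those of H3K27 lie below theirs.

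Marked here means a ratio over the input of the same line of 2-fold or more on that scale. H3K4 marked 9 members in mK4 (11.8%, background 3.69% of all genes) and 8 in mK3 (10.5%, background 4.94%). Genes of like exon length were marked more often than all genes, at 266 of 4886 in mK4 and 354 of 4886 in mK3. In at least 1 line H3K4 marked 16 members (21.1%, background 7.82%). Mrps10, a protein of the head of the small subunit, was the 1 member marked in both lines (1.32%, background 0.811%). Its H3K4 reads were 26 in mK4 and 25 in mK3, beside 5 and 4 input reads. The ratio of read shares was 2.82 in mK4 (1.06 to 9.39) and 3.27 in mK3 (1.13 to 12.9).

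Members are ranked on the log2 scale with the pseudocount of 5, while the folds printed beside the reads are plain ratios of read shares, which put members with few input reads higher. In mK4 the highest log2 ratio was at Mrps11 (2.05), a platform protein of the small subunit, with 60 H3K4 and 5 input reads (6.50-fold, 2.64 to 20.7). Mrpl34, a small protein of the large subunit, followed at 1.77 with 42 and 4 reads (5.69-fold, 2.06 to 21.8). Mrpl39 stood at 1.44 with 17 H3K4 reads and 1 input read, for which the share ratio was 9.21 with a wide interval (1.44 to 385). Mrps9, which has a bacterial counterpart in the head of the small subunit, stood at 1.40 with 31 and 4 reads (4.20-fold, 1.48 to 16.4). Mrpl2, next to the peptidyl transferase centre, had 42 and 8 reads (2.84-fold, 1.32 to 7.01). Mrpl18, which binds 5S ribosomal RNA in bacteria, had 50 and 10 (2.71-fold, 1.36 to 5.99), and Mrps26 34 and 7 (2.63-fold, 1.15 to 7.03). The calls of Mrpl39 and of Mrpl27, with 8 H3K4 and 0 input reads, rested on the fewest input reads. Mrpl2, Mrpl18 and Mrpl27 overlap Klc4, Tcp1 and Eme1 on the RefSeq annotation, and the reads carry no strand, so those in a shared stretch cannot be told apart. In all, 16 of the 76 members overlap another measured gene, with the same limit.

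In mK3 the highest log2 ratio was at Mrpl37 (1.33), a large subunit protein without a bacterial counterpart, with 28 H3K4 and 4 input reads (3.66-fold, 1.28 to 14.4). Mrps28, at 1.24, had 17 and 2 reads and the larger share ratio (4.45-fold, 1.06 to 39.7). Mrpl53 had 39 and 7 (2.91-fold, 1.29 to 7.72) and Mrps22, mutated in human mitochondrial disease, 27 and 5 (2.82-fold, 1.07 to 9.39). Mrps30 had 42 and 8 reads (2.75-fold, 1.27 to 6.77), Mrpl4 45 and 9 (2.62-fold, 1.26 to 6.09) and Mrpl52 25 and 5 (2.62-fold, 0.983 to 8.75). Mrpl37 and Mrpl53 overlap Cyb5rl and Ccdc142, with the same limit on shared stretches. Mrpl28, with 44 and 10 reads, lay just under the limit, with Mrpl52 just inside it. Members at least 2-fold below input were Mrpl13 and Mrpl40 in mK4 (2.63%, background 2.53%) and Mrps6 in mK3 (1.32%, background 3.63%).

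Absolute density gave another order. The densest H3K4 in mK4 was at Mrpl43, with 95.6 RPKM, followed by Mrpl34 with 90.8, and in mK3 at Mrpl53 with 105 RPKM, followed by Mrpl52 with 101. Mrpl43 had 83 H3K4 reads in mK4 and 50 in mK3 beside 25 and 18 input reads, so its input was dense too (53.2 and 47.5 RPKM), and it was not marked. Low ends were Mrps21 in mK4, with 1 H3K4 read, and Mrpl30 in mK3, with 0 H3K4 reads, which allows up to 3. The shortest member, Mrps21, has 409 bases of exon, and 42 members in mK4 and 44 in mK3 had under 10 input reads.

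H3K27 stood on the other side of input. The members took 0.132% of mK4 H3K27 reads (0.122 to 0.143), a ratio to input of 0.658 (0.592 to 0.732), and 0.135% of mK3 H3K27 reads (0.125 to 0.144), a ratio of 0.610 (0.55 to 0.676). Summed density was 12.4 RPKM in mK4 and 12.7 in mK3, under the 16.1 of all genes. The median log2 ratio was -0.43 in mK4 and -0.47 in mK3, beside 0.00 for all genes and 0.10 and 0.17 for all genes of like exon length. H3K27 lay below input at 57 of 76 members in mK4 and 62 in mK3, against 49.6% and 47.2% of all genes, and below it in both lines at 46 (60.5%, all genes 33.0%).

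H3K27 marked 0 members in mK4 (background 9.06%) and 2 in mK3 (2.63%, background 10.3%). The 2 were Mrps21, with 7 H3K27 and 0 input reads, and Mrps33, with 6 and 0. Since neither had an input read in mK3, no fold is given, and the lower bounds of their share ratios were 0.757 and 0.618. At least 2-fold below input were 12 members in mK4 (15.8%, background 6.11%) and 14 in mK3 (18.4%, background 5.36%). Mrps34, mutated in human mitochondrial disease, had the lowest log2 ratio in both lines, -1.82 in mK4 and -1.85 in mK3. It had 3 H3K27 and 18 input reads in mK4 (ratio 0.134, 0.0253 to 0.459) and 9 and 25 in mK3 (0.189, 0.0776 to 0.419). By plain share ratio others with fewer reads lay lower, Mrpl23 in mK4 (0 H3K27 and 5 input reads) and Mrpl14, Mrpl20 and Mrpl47 in mK3 (0.175 each). Mrpl12, a stalk protein that also binds the mitochondrial RNA polymerase, had 3 and 12 reads in mK4 and 6 and 12 in mK3. Mrps34 and Mrpl12 were the members past this limit in both lines (2.63%, background 0.930%). Mrps34 also had the densest input in mK3, at 89.1 RPKM, and 51.7 in mK4.

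**Figure D3:**
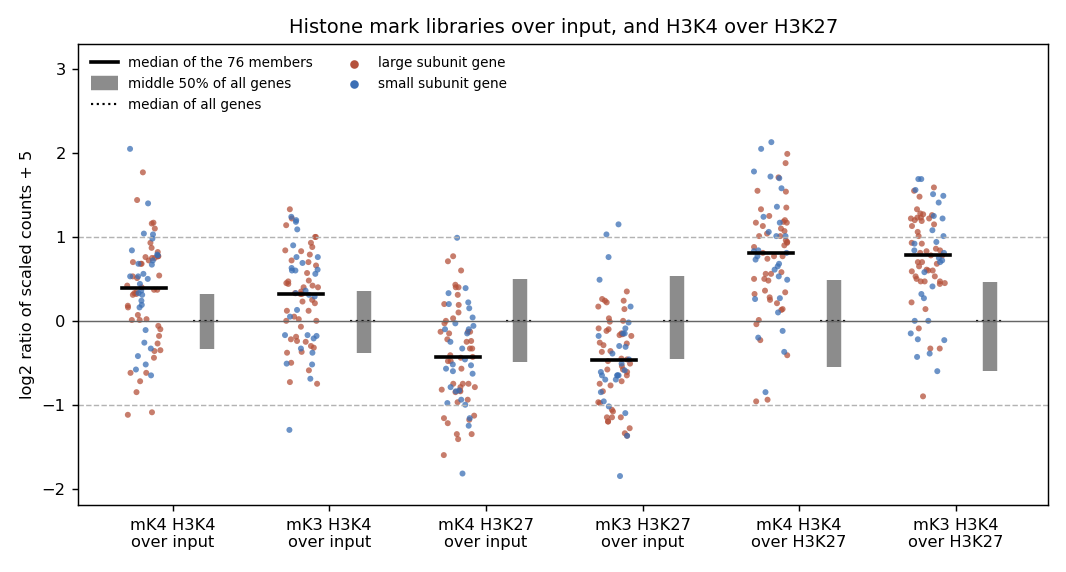
Log2 ratio of scaled counts plus 5 (y axis) for each member (points, large and small subunit by colour, black bar the median) beside the middle 50% and the median of all genes, for each mark over input and for H3K4 over H3K27; dashed lines mark 2-fold. Medians of the members are 0.39 and 0.32 for H3K4, -0.43 and -0.47 for H3K27, and 0.81 and 0.78 for H3K4 over H3K27.

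Each mark was read against the same few input reads of its line, so the libraries of both marks were also set against each other, a comparison added after the data were seen. H3K4 took a 2.18-fold larger share at the members than H3K27 in mK4 (1.99 to 2.39) and a 2.16-fold larger one in mK3 (1.98 to 2.35). The median log2 ratio was 0.81 in mK4 and 0.78 in mK3, against 0.00 for all genes in each line. H3K4 exceeded H3K27 at least 2-fold at 30 of 76 members in mK4 (39.5%, background 9.32%) and at 27 in mK3 (35.5%, background 8.36%). The reverse was found at 0 members in mK4 (background 10.4%) and 0 in mK3 (background 11.8%). On the log2 scale 67 of 76 members lay above 0 in mK4 (88.2%, all genes 48.4%) and 64 in mK3 (84.2%, all genes 44.5%). Mrps34 led in mK4 with 43 H3K4 and 3 H3K27 reads. In mK3, Mrps30 and Mrps34 tied for the highest ratio, each with 42 H3K4 and 9 H3K27 reads.

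Large and small subunit genes were close in H3K4. The large subunit genes had a summed H3K4 density of 27.7 RPKM and the small subunit genes one of 26.2 in mK4, a ratio of 1.06 (0.963 to 1.16), and 28.3 and 25.7 in mK3, a ratio of 1.10 (0.993 to 1.22). With medians over genes in place of sums the order turned in mK4, to 24.0 RPKM for large and 25.7 for small subunit genes, and did not in mK3, at 30.2 and 26.6. H3K4 marked 5 of 47 large (10.6%) and 4 of 29 small subunit genes (13.8%) in mK4, against 3.69% of all genes. In mK3 it marked 4 large (8.51%) and 4 small subunit genes (13.8%), against 4.94%. H3K27 density was 13.4 RPKM at large and 10.7 at small subunit genes in mK4 (ratio 1.26, 1.06 to 1.5), and 13.2 and 11.7 in mK3 (1.13, 0.973 to 1.31). Mrpl17 alone held 75 of the 442 large subunit H3K27 reads in mK4. Without it the H3K27 ratio was 1.16 in mK4 and 1.16 in mK3, for which no interval was computed. The input of mK4 leaned the same way, at 20.1 and 16.7 RPKM (ratio 1.2, 1.03 to 1.4), while in mK3 input both stood at 20.8 (ratio 1.0, 0.856 to 1.18). Set over its own input, H3K4 had a share ratio of 1.38 at large (1.24 to 1.52) and 1.57 at small subunit genes (1.35 to 1.82) in mK4. In mK3 these were 1.36 (1.22 to 1.52) and 1.24 (1.07 to 1.45), so the subunit with the higher ratio differed between the lines and the intervals overlapped in each. H3K27 over input was 0.668 at large and 0.638 at small subunit genes in mK4, and 0.635 and 0.564 in mK3, with overlapping intervals.

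The symbol does not always give the place in the ribosome. Mrps18a and Mrps30 are located in the large subunit, and Mrps36 is known as a component of the 2-oxoglutarate dehydrogenase complex of the citric acid cycle. Mrps30 had 45 H3K4 reads in mK4 and 42 in mK3, and Mrps36 had 5 and 1. Mrps18a, Mrps18b and Mrps18c are paralogues of 1 bacterial protein. Mrps18a had 20 H3K4 reads in mK4 and 18 in mK3, Mrps18b 13 and 6, and Mrps18c 10 and 13. Per length their order was Mrps18a, Mrps18c and Mrps18b in mK4 (32.2, 27.6 and 17.2 RPKM) and Mrps18c, Mrps18a and Mrps18b in mK3 (43.0, 34.8 and 9.51), and none of the 3 was marked.

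Some members are known from human mitochondrial disease. Mrpl3, near the peptidyl transferase centre, had 49 H3K4 and 14 input reads in mK4 and 34 and 9 in mK3 (log2 0.77 and 0.79). Mrpl44, related to ribonuclease III, had 26 and 14 reads in mK4 and 30 and 12 in mK3 (0.01 and 0.32). Mrps2 had 35 and 12 in mK4 and 30 and 7 in mK3 (0.53 and 0.90). These values lay between input and the 2-fold limit in both lines. Mrps7, which binds ribosomal RNA in the head of the small subunit in bacteria, had 32 and 13 reads in mK4 and 28 and 11 in mK3 (0.33 in each). Mrps16 had 7 H3K4 and 3 input reads in mK4 and 9 and 3 in mK3. Mrpl23, at the tunnel exit and not counted here among the disease genes, had fewer H3K4 reads than Mrps16. It had 2 H3K4 and 5 input reads in mK4 and 4 and 1 in mK3.

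Groups by place in the large subunit were small. The stalk proteins Mrpl10, Mrpl11 and Mrpl12, which recruit translation factors, had H3K4 medians over input of 0.42 in mK4 and 0.33 in mK3, near those of all members, and 0 of 3 was marked. Mrpl12 had 35 H3K4 reads in mK4 and 23 in mK3, each beside 12 input reads. The 5 genes listed for the central protuberance (Mrpl38, Mrpl40, Mrpl46, Mrpl48 and Mrpl52) had medians of -0.36 in mK4 and 0.02 in mK3. These were the lowest of the groups as listed, with Mrpl40 in mK4 at 9 H3K4 and 15 input reads. The list need not be complete, and its median depends on the genes chosen. Mrpl18 and Mrpl27, not in it, lay at 1.16 and 1.10 in mK4 and at 0.21 and -0.38 in mK3. Genes at the exit of the peptide tunnel (Mrpl17, Mrpl22, Mrpl23, Mrpl24 and Mrpl45) lay at 0.32 and 0.35. Split by numbering, the 44 members with a bacterial counterpart had medians of 0.53 in mK4 and 0.35 in mK3, and the 32 numbered above that set, which are mostly additions of mitochondria, 0.32 and 0.18. H3K4 marked 7 of the 44 in mK4 and 2 in mK3, and 2 of the 32 in mK4 and 6 in mK3, where 3.69% of all genes were marked in mK4 and 4.94% in mK3.

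The comparison of mK4 with mK3 gave near-equal sums. The share ratio of the members, mK4 over mK3, was 0.992 for H3K4 (0.930 to 1.06), 0.981 for H3K27 (0.882 to 1.09) and 0.908 for input (0.819 to 1.01). Median log2 ratios were -0.07, -0.13 and -0.11, beside -0.02, -0.06 and 0.00 for all genes. At least 2-fold higher H3K4 in mK4 was found at Mrpl22 and Mrps11 (2.63%, background 4.51%) and at least 2-fold lower at Mrpl33 and Mrpl52 (2.63%, background 2.99%). For H3K27, Mrpl17 and Mrps28 were higher (2.63%, background 3.73%) and Mrps17 lower (1.32%, background 3.54%), and in the inputs 5 members were higher (6.58%, background 7.26%) and 8 lower (10.5%, background 6.20%). The shares for both marks and for higher input lay below the background, and the share for lower input lay above it. Each rests on few members, and the differences from the background were not tested.

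With the added condition that the gene be marked in at least 1 line, H3K4 was higher in mK4 at Mrps11 (1.32%, background 0.424%) and lower at Mrpl52 (1.32%, background 0.392%). Mrps11 had 60 H3K4 reads in mK4 and 19 in mK3 (2.63-fold, 1.55 to 4.67), with 5 input reads in each line. Its head-to-head partner Mrpl46 had 32 and 18 (1.48-fold, 0.807 to 2.80), with 13 and 10 input reads. Mrpl52 had 10 H3K4 reads in mK4 and 25 in mK3 (ratio 0.333, 0.143 to 0.719), with 8 and 5 input reads. Under the same condition H3K27 was higher at 0 members (background 0.889%) and lower at 0 (background 0.934%).

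Without that condition, Mrps28 had 17 H3K27 reads in mK4 and 5 in mK3 (4.19-fold, 1.48 to 14.5), and Mrpl17, a protein at the tunnel exit, had 75 and 39 (2.37-fold, 1.59 to 3.59). Mrps17 had 2 H3K27 reads in mK4 and 13 in mK3 (ratio 0.190, 0.0208 to 0.837). Mrpl9, with the next highest H3K4 ratio after Mrps11 and Mrpl22, had 91 H3K4 reads in mK4 and 38 in mK3 (2.00-fold, 1.35 to 3.0), and its input moved alike, with 29 and 9 reads. Mrps28 and Mrpl9 lie on chromosome 3, and Mrps11, Mrpl46 and Mrpl17 on chromosome 7. On the log2 scale, subtraction of the input ratio of the rest of the chromosome took Mrps28 from 1.31 to 0.43 and Mrpl17 from 1.13 to 0.51. Both then lay under the 2-fold limit. The gene ratios hold a pseudocount of 5 and the chromosome ratio holds none, so the subtraction weighs more on members with few reads. As plain share ratios, Mrps28 stood at 4.19 beside 1.84 for the input of the other chromosome 3 genes. Mrpl17 stood at 2.37 beside 1.54 for chromosome 7. Mrps17, on chromosome 5, stood at -1.06 against -1.19 before.

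**Figure D4:**
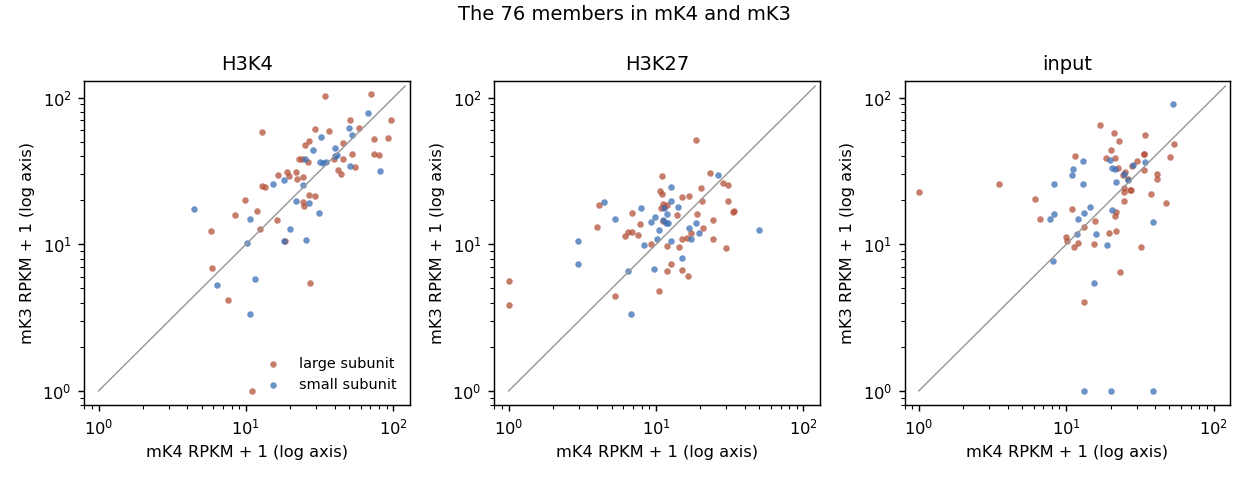
RPKM plus 1 of each member in mK4 (x axis) and mK3 (y axis) for H3K4, H3K27 and input, both axes logarithmic, with the line of equality. The order of members was most alike between mK4 and mK3 for H3K4, with a rank correlation of 0.75 against 0.32 for H3K27 and 0.39 for input. Rank correlation does not measure distance from the line.

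Across the 76 members the H3K4 density of mK4 and mK3 had a rank correlation of 0.75, against 0.65 over all genes. For H3K27 it was 0.32 against 0.55, and for input 0.39 against 0.47. These are descriptions across genes that share the same pair of libraries, and H3K27 and input reads at members were fewer, with medians of 6.5 in mK4 and 9 in mK3 for H3K27, 8 in each line for input, and 25.5 in mK4 and 20 in mK3 for H3K4.

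Differences between the lines moved with the chromosome in the input as well as in the marks, and the part of chromosome dose in the results of single members was not tested. The other genes of chromosome 3 had input shares 1.84-fold higher in mK4 and those of chromosome 7 1.54-fold higher, while chromosome 14 stood at 0.643. The 11 members on chromosomes 3 and 7 had a summed share ratio, mK4 over mK3, of 1.54 for H3K4 (1.3 to 1.83), 2.00 for H3K27 (1.54 to 2.60) and 1.81 for input (1.34 to 2.46). Of the 11, 9 lay higher in mK4 for H3K4, 8 for H3K27 and 10 for input. On the 63 members of the chromosomes other than 3, 7 and 14 the ratios were 0.924 for H3K4 (0.861 to 0.992), 0.843 for H3K27 (0.748 to 0.949) and 0.811 for input (0.724 to 0.908). Mrpl52 and Mrps16, both on chromosome 14, had an H3K4 ratio of 0.417 (0.218 to 0.767), beside 0.644 for the H3K4 reads of the other genes there. After subtraction of the input ratio of the rest of the chromosome, the H3K4 log2 ratio of Mrps11 was 0.54 against 1.17 before, and that of Mrpl52 -0.49 against -1.12, so neither reached 2-fold. At least 2-fold higher after the subtraction were Mrpl22 on chromosome 11, with 14 H3K4 reads in mK4 and 2 in mK3 (1.26, before 1.16), and Mrpl18 on chromosome 17, with 50 and 23 (1.03, before 0.72). At least 2-fold lower were Mrps21 (-1.44, before -0.56), Mrpl33 (-1.12, before -1.26) and Mrpl23 (-1.02, before -0.39). They had 1, 4 and 2 H3K4 reads in mK4 and 4, 16 and 4 in mK3. The chromosome ratio again held no pseudocount. The share of all genes past these limits after the subtraction was not computed, so the calls have no background beside them. Of these 5, H3K4 marked Mrpl18, in mK4.

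**Figure D5:**
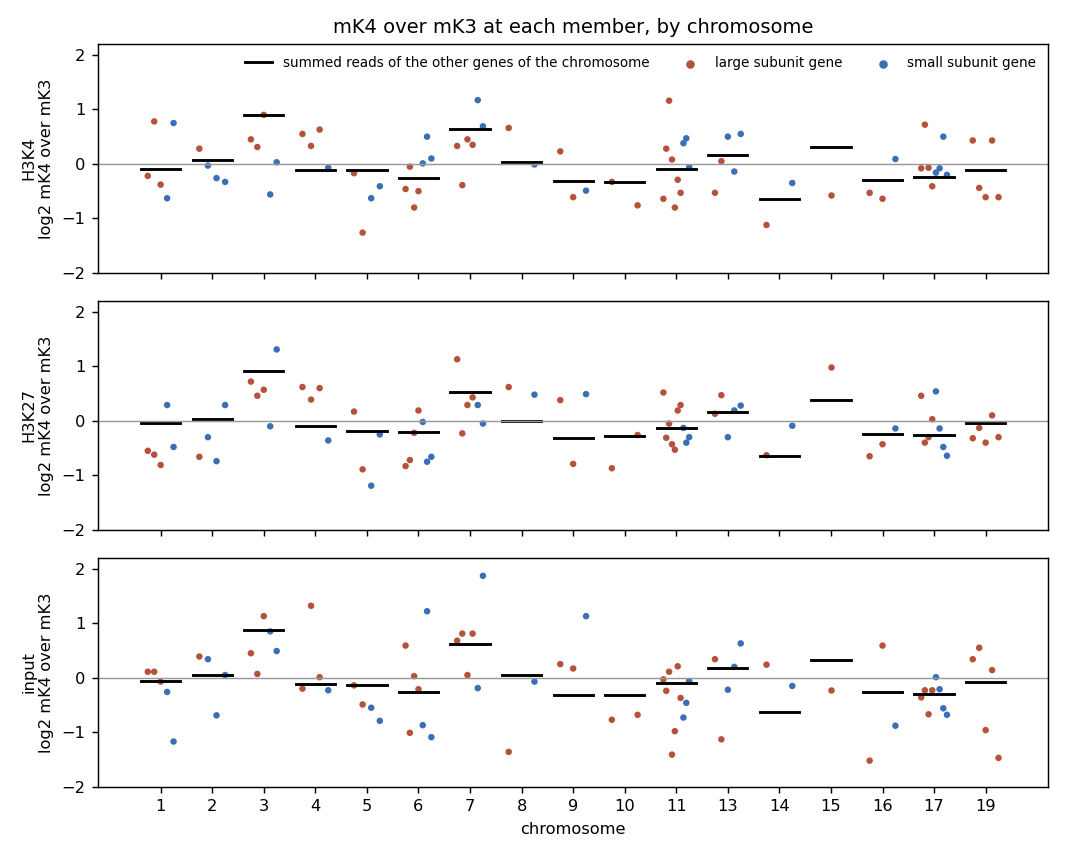
Log2 ratio of mK4 over mK3 (y axis) of each member, grouped by chromosome (x axis), for H3K4, H3K27 and input; black bars give the ratio of the summed reads of all other genes of the chromosome. On chromosomes 3 and 7 bars and most points lie above 0 in all 3 panels, and 9, 8 and 10 of the 11 members there do so.

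Other genes of mitochondrial translation and gene expression were set beside the members as 5 lists. H3K27 medians lay below input in both lines for each list, whereas H3K4 medians lay above input in both lines for 2 of the 5, the mitoribosome genes outside the symbol rule and the aminoacyl-tRNA synthetases. Of 7 mitoribosome genes outside the symbol rule, H3K4 marked 0 in each line, with medians over input of 0.40 in mK4 and 0.51 in mK3, and H3K27 medians of -0.80 and -0.54. Dap3, which encodes small subunit protein S29, had 103 H3K4 reads in mK4 and 46 in mK3 with 62 and 16 input reads. H3K4 marked 4 of 17 translation factors in mK4 and 1 in mK3 (medians 0.32 and -0.07). The 4 were Mtif2, the initiation factor, with 69 H3K4 and 12 input reads, Mtfmt, which formylates the initiator tRNA, Taco1, an activator of cytochrome oxidase translation, and Tufm, the elongation factor. Among 18 assembly and ribosomal RNA modification genes 3 were marked in mK4 and 2 in mK3 (medians 0.21 and -0.06), among 17 mitochondrial aminoacyl-tRNA synthetases 2 and 2 (0.20 and 0.10), and among 16 genes of mitochondrial DNA transcription and replication 1 and 1 (-0.01 and -0.13). The H3K4 background beside the counts of these lists was 3.69% of all genes in mK4 and 4.94% in mK3. Yars2, the mitochondrial tyrosyl-tRNA synthetase, was marked in both lines, with 83 H3K4 reads in mK4 and 73 in mK3 beside 18 and 14 input reads. H3K27 marked 0 genes of these 5 lists in mK4 (background 9.06%) and 1 in mK3 (background 10.3%), Sars2. Its mK3 values were 16 H3K27 reads and 2 input reads.

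The nearest large sets lay on the same sides of input. H3K4 medians over input were 0.31 in mK4 and 0.41 in mK3 for 86 cytosolic ribosomal protein genes, and 0.28 and 0.15 for 82 oxidative phosphorylation genes. H3K27 medians were -0.33 and -0.29 for the cytosolic set and -0.53 and -0.44 for oxidative phosphorylation. H3K4 marked 17 of 86 cytosolic genes in mK4 and 14 in mK3, and 10 and 6 of 82 oxidative phosphorylation genes. Of all genes, 3.69% were marked in mK4 and 4.94% in mK3. These differences between sets were not tested. Members with the ETS core had H3K4 medians over input of 0.61 in mK4 and 0.38 in mK3 (n = 24), and those without it 0.36 and 0.32 (n = 43). With the NRF1 core the medians were 0.50 and 0.34 (n = 8), and without it 0.42 and 0.32 (n = 59). For the YY1 core the lines differed in direction, with 0.62 in mK4 and -0.06 in mK3 for members that hold it (n = 8), and 0.36 and 0.33 for those without (n = 59). Members with a head-to-head neighbour lay at 0.46 and 0.30 (n = 22), and those without at 0.42 and 0.33 (n = 45).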

How the data were processed

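Per the file headers, each deposited file gives, for 1 library, whole read counts per gene over its exons, the exon length and an RPKM value. The authors' RPKM equals the count per exon kilobase, scaled to the summed counts of its file. Build mm9 is named in the submitters' processing notes. The aligner was not given in the sources used here. The files list 22088 entries, and 137 symbols had several; the entry with the highest ChIP mean was kept, leaving 21937 genes, and no member was affected. Counts were scaled to the mean library total of 513622, and log2 ratios used a pseudocount of 5. Groups hold 1 library each, so nothing was tested between them; the ratio and interval code was tested on simulated data. Members and lists were chosen with earlier results of these data known, and groups by place in the ribosome after the values were seen. Named members are those called, the 6 highest and 6 lowest ratios among members with at least the median count, the 3 highest and 3 lowest input densities, and 14 fixed names. No mm9 genome was used; all 76 symbols matched the RefSeq table. Protein sequences were not used here. Alternatives covered the pseudocount, a count minimum of 10, median-of-ratios size factors, the background and chromosomes. Analyses used Python 3.11.15, NumPy 2.4.6, pandas 2.3.3, SciPy 1.17.1 and Matplotlib 3.10.9.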

Additional observations from a re-analysis of the deposited data

Results flagged for a closer look

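Members that were marked over input in 1 line and lay below input in the other are listed here; with 1 library per line the difference was not tested. For H3K4, Mrpl34 differed by 2.02 on the log2 scale, mK4 minus mK3 (42 H3K4 and 4 input reads in mK4, 20 and 13 in mK3). Mrps9 differed by 1.91 (31 and 4 reads in mK4, 13 and 11 in mK3). Mrpl27 differed by 1.48 (8 and 0 reads in mK4, 6 and 5 in mK3). Mrps22 differed by -1.61 (21 and 18 reads in mK4, 27 and 5 in mK3), and Mrpl52 by -1.36 (10 and 8 reads in mK4, 25 and 5 in mK3). For H3K27, Mrps33 differed by -1.97 (1 and 5 reads in mK4, 6 and 0 in mK3). At all 6 the input share differed in the direction opposite to the difference, and its part in the result was not tested.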

How the results depend on the processing

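No paired analysis was possible because each group has 1 library. Of 136 values recomputed, 99 stayed within 1.5-fold of a count or within the interval of a median or ratio. The 99 include 6 from keeping all entries of a symbol, which could not move because no member had several entries. The medians of H3K4 over input stayed above 0 and those of H3K27 below 0 under every setting tried, but the counts of marked members depend on the pseudocount and the background. The share of all genes called was not computed under the other settings, so the counts below cannot be set against all genes. The H3K4 shares of 3.69% in mK4 and 4.94% in mK3 hold for the main setting alone. With a pseudocount of 1, H3K4 marked 18 members in mK4 and 16 in mK3 and H3K27 marked 3 in mK4; the mK3 H3K27 median was -0.69, members both marked and changed numbered 3 higher and 2 lower in mK4 for H3K4, and 1 and 1 for H3K27. With a pseudocount of 10, H3K4 marked 3 and 2 members, H3K27 marked 0 in mK3, and 0 were marked and lower in mK4 for H3K4. With a mean scaled count of at least 10, which left 51 members, H3K27 marked 0 in mK3, 0 were marked and lower for H3K4, and the mK3 H3K4 density ratio of large to small subunit was 0.991. With median-of-ratios size factors H3K27 marked 1 in mK4, and 1 was marked and higher there. Without chromosomes 3, 7, 14 and X and the chromosome 15 run, which left 63 members, H3K27 marked 1 in mK3, and for H3K4 0 were marked and higher and 0 marked and lower. With exon length as background H3K4 marked 20 members in mK4 and 19 in mK3 and H3K27 marked 1 and 0; the mK3 medians were 0.63 for H3K4 and -0.21 for H3K27 (medians against exon length were added after the data were seen). With the H3K27 library as background, also added, H3K4 marked 30 and 27, with medians of 0.81 and 0.78. With own input subtracted, 4 were marked and higher and 2 marked and lower for H3K4, and 1 marked and lower for H3K27. With chromosome input subtracted, 0 were marked and lower for H3K4; 1 was marked and higher, as before, but it was Mrpl18 in place of Mrps11. The ratio of median densities of large to small subunit was 0.933 for mK4 H3K4, 1.45 for mK4 input and 1.32 for mK3 input. The cause of these shifts was not tested. Depth limits single members: most had under 10 reads in each input.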

Other observations

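Neighbours across a shared start could be read together, chosen after their values were seen. Mrps12, a protein of the decoding centre, and Sars2, whose starts lie 147 bases apart on chromosome 7, had 10 and 19 input reads in mK4, against 0 and 2 in mK3. Their H3K4 reads were 12 and 55 in mK4, against 4 and 24 in mK3. The input share of the other genes of that chromosome was 1.54-fold higher in mK4. Mrpl49 faces Fau, which encodes a cytosolic ribosomal protein, with starts 192 bases apart. Mrpl49 had 22 H3K4 and 7 input reads in mK4 and 31 and 21 in mK3, and Fau 62 and 10 in mK4 and 48 and 13 in mK3. Mrpl49 also overlaps Syvn1 on the RefSeq annotation, and reads in a shared stretch cannot be told apart. Mrp63, a large subunit gene outside the symbol rule, had 78 H3K4 reads in mK4 and 140 in mK3, beside 31 and 36 input reads; it lies on chromosome 14, where the other genes' H3K4 share stood at 0.644.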
